A study of Mus musculus with 17 samples.

Results

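The genes that encode the NF-kB transcription factor subunits, Nfkb1, Nfkb2, Rel, Rela and Relb, were followed through 3 states of mouse spleen B cells. They are the 5 rows, of 55536 genes in the count table, whose gene name is that of a subunit, and all 5 passed the filter on low counts. The libraries came from B cells sorted by flow cytometry as naive, activated or germinal centre (GC) cells of wild-type (WT) mice or of mice labelled p52Ki, a knock-in of p52 that is called p52ki here. WT naive, WT activated and WT GC cells had 3 libraries each (replicates 1, 3 and 4), p52ki naive and p52ki activated cells had 3 each (replicates 2, 3 and 5), and p52ki GC cells had 2 (replicates 2 and 5), 17 in all. The labels give no age, immunization or sorting gate, do not say what the knock-in changes in the Nfkb2 locus, and do not say whether the replicates were separate animals. The p-values therefore measure the spread between these libraries, which may be technical.

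NF-kB factors are dimers of proteins that share a Rel homology domain, through which they pair and bind DNA. Nfkb1 and Nfkb2 encode the precursors p105 and p100, which are processed to p50 and p52. These lack a transactivation domain of their own, while the proteins of Rel (c-Rel), Rela (p65) and Relb carry one. In the canonical pathway, driven by the B cell receptor, CD40 or Toll-like receptors, degradation of IkB proteins releases mostly dimers of p50 with p65 or c-Rel. In the noncanonical pathway, driven by the BAFF receptor and CD40, the kinase NIK leads to processing of p100 and release of p52 with Relb. In B cells c-Rel is known for its part in division after activation and in the upkeep of GCs, and p52 with Relb for B cell survival and the layout of lymphoid organs. By its title, the study is about p52 acting together with ETS1, a transcription factor of the ETS family.

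The subunit genes lie on 4 chromosomes of the build GRCm38, by the annotation of GENCODE mouse release 21. Nfkb1 (ENSMUSG00000028163) spans 135584655 to 135691547 on the minus strand of chromosome 3. Nfkb2 (ENSMUSG00000025225) spans 46304320 to 46312385 on the plus strand of chromosome 19. Its exons share 531 bases with AC114539.1 and 299 bases with Psd, which are annotated on the opposite strand. As the strand setting of the count is not given in the sources used here, some reads of Nfkb2 may belong to these neighbours, which had 58 to 258 and 0 to 166 counts per library. Rela (ENSMUSG00000024927) spans 5637483 to 5648130 on the plus strand of chromosome 19. Rel (ENSMUSG00000020275) spans 23736847 to 23770970 on the minus strand of chromosome 11, and Relb (ENSMUSG00000002983) spans 19606217 to 19629438 on the minus strand of chromosome 7. The count of a gene sums all of its exons and both alleles, so p100 and p52, which are made from the same Nfkb2 transcript, and the knock-in and normal alleles are not separated.

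NF-kB proteins bind the kB motif, and several genes of the family are known targets of NF-kB, so the start sites of the subunit genes were searched for it. RefSeq windows on GRCm38.p6 (250 bases before to 50 bases after a start site) were at hand for 3 of the 5 genes, Nfkb2 with 3 start sites and Rel and Rela with 1 each. All 3 genes were called lower in a GC comparison below, Nfkb2 and Rel in WT and Rela in p52ki cells. The windows of Nfkb2 and Rel held matches and that of Rela did not. The stretches shown run 5′ to 3′ on the strand of the gene, with matches to the kB consensus on either strand in capitals. Overlapping matches are joined. The stretches at the first start site of Nfkb2 lie in an exon that GENCODE begins at 46304320.
Nfkb2, first start site, chr19:46304690-46304719: atcgtcacGGGAATTCCCCccctcgggggg
Nfkb2, first start site, chr19:46304717-46304746: gggccgaaaGGGGCTTTCCcggctggagcc
Nfkb2, middle start site, chr19:46305449-46305478: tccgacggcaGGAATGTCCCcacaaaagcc
Nfkb2, last start site, chr19:46305695-46305724: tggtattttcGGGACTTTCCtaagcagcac
Rel, chr11:23771020-23771119: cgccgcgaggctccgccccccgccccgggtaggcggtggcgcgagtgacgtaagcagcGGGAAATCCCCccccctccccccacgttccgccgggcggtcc
Rela, chr19:5637391-5637480: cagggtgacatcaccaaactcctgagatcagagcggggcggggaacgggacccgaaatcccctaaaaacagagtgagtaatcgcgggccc
The matches began 39 and 38 (overlapping) and 11 bases before the first start site of Nfkb2, 236 bases before its middle one, 225 bases before its last, and 92 and 91 (overlapping) bases before that of Rel. The match before the last start site of Nfkb2 also lies within the window of the middle one. The consensus was found in 1478 of all 32817 RefSeq windows of this length (4.50%). The ETS motif CCGGAAGT, searched on both strands, was found in 1276 windows (3.89%) and in none of those of Nfkb2, Rel and Rela. A match is a match of letters only, and no binding was measured.

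Assigned counts ran from 4067281 to 10036347 per library, and a library held between 0 and 2175 counts of any subunit gene. The libraries of WT GC replicate 3 and p52ki GC replicates 2 and 5 had counts for 11232, 11390 and 13044 genes, against 16745 to 19672 in the other 14, so both p52ki GC libraries and 1 of 3 WT GC libraries stand apart. The B cell markers Cd79a, Cd79b, Ms4a1, Pax5 and Cd22 were present in all libraries, with a summed level of 8521 to 19066 CPM, the count scaled to the size of its library. A list of 7 GC markers, among them Bcl6, S1pr2 and Gcsam, summed to 1004 to 2409 CPM in the GC libraries and to at most 255 CPM in the others. The 3 libraries named above had the lowest GC sums, 1565 CPM in WT and 1004 and 1678 CPM in p52ki. WT GC replicates 1 and 4 had 2409 and 2394 CPM. S1pr2 and Gcsam were lower in both p52ki GC libraries than in all WT GC ones, and Bcl6 overlapped. The 4 markers of naive follicular cells Ighd, Fcer2a, Ccr6 and Ccr7 summed to 384 to 577 CPM in WT GC cells, to 1018 and 1217 CPM in p52ki GC cells and to 5510 to 6547 CPM in naive cells. A list of 5 plasma cell markers, led by Jchain, summed to 216 to 336 CPM in naive cells, 1588 to 8136 CPM in activated cells, 2665 to 5911 CPM in WT GC cells and 2680 and 2712 CPM in p52ki GC cells, where its gene Prdm1 was at 0. A list of 6 dendritic cell markers summed to 33.4 to 60.7 CPM in GC libraries and to at most 14.2 CPM in the others. Flt3 made up most of it, and the other 5 genes had counts in 0 to 3 per GC library. The 5 erythroid markers Hba-a1, Hba-a2, Hbb-bs, Hbb-bt and Alas2 summed to 49 to 233 CPM in WT GC cells and 326 and 372 CPM in p52ki GC cells, with Alas2 at 0 in the latter, and to 15 to 303 CPM in the other groups. Lists of T cell, NK cell and myeloid markers summed to at most 129.7, 53.0 and 70.7 CPM in any library. The highest T cell sum, in WT GC replicate 4, was mostly Lck (122 CPM). The T cell genes Cd3d and Cd3e and the NK gene Gzma were highest in p52ki GC replicate 2 (11.4, 26.7 and 20.8 CPM). In that library Cd3g, Trac, Ncr1 and Klrd1 were at 0. Its NK sum was 33.0 CPM, against 0.611 to 8.15 CPM in WT GC libraries and 0 in p52ki GC replicate 5. The sums of the plasma cell and dendritic lists thus moved with state, mostly through Jchain and Flt3. The plasma cell gene Sdc1 was lower in GC (0 to 6.96 CPM) than in naive cells (11.9 to 20.3 CPM). Erythroid markers moved with genotype in GC cells, and the part of all these markers in the results was not tested. The numbers that end the library names are 1 to 12 for WT and 19 to 30 for p52ki, and a batch in that order cannot be told apart from genotype. Levels below are TMM-scaled CPM, in the order of the replicates, with means ± SD. Differences are log2 fold changes ± SE from edgeR's quasi-likelihood test, with p-values adjusted over 15352 genes, and calls were made below 0.05. In bulk libraries fewer cells that express a gene and less RNA per cell cannot be told apart.

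**Figure D1:**
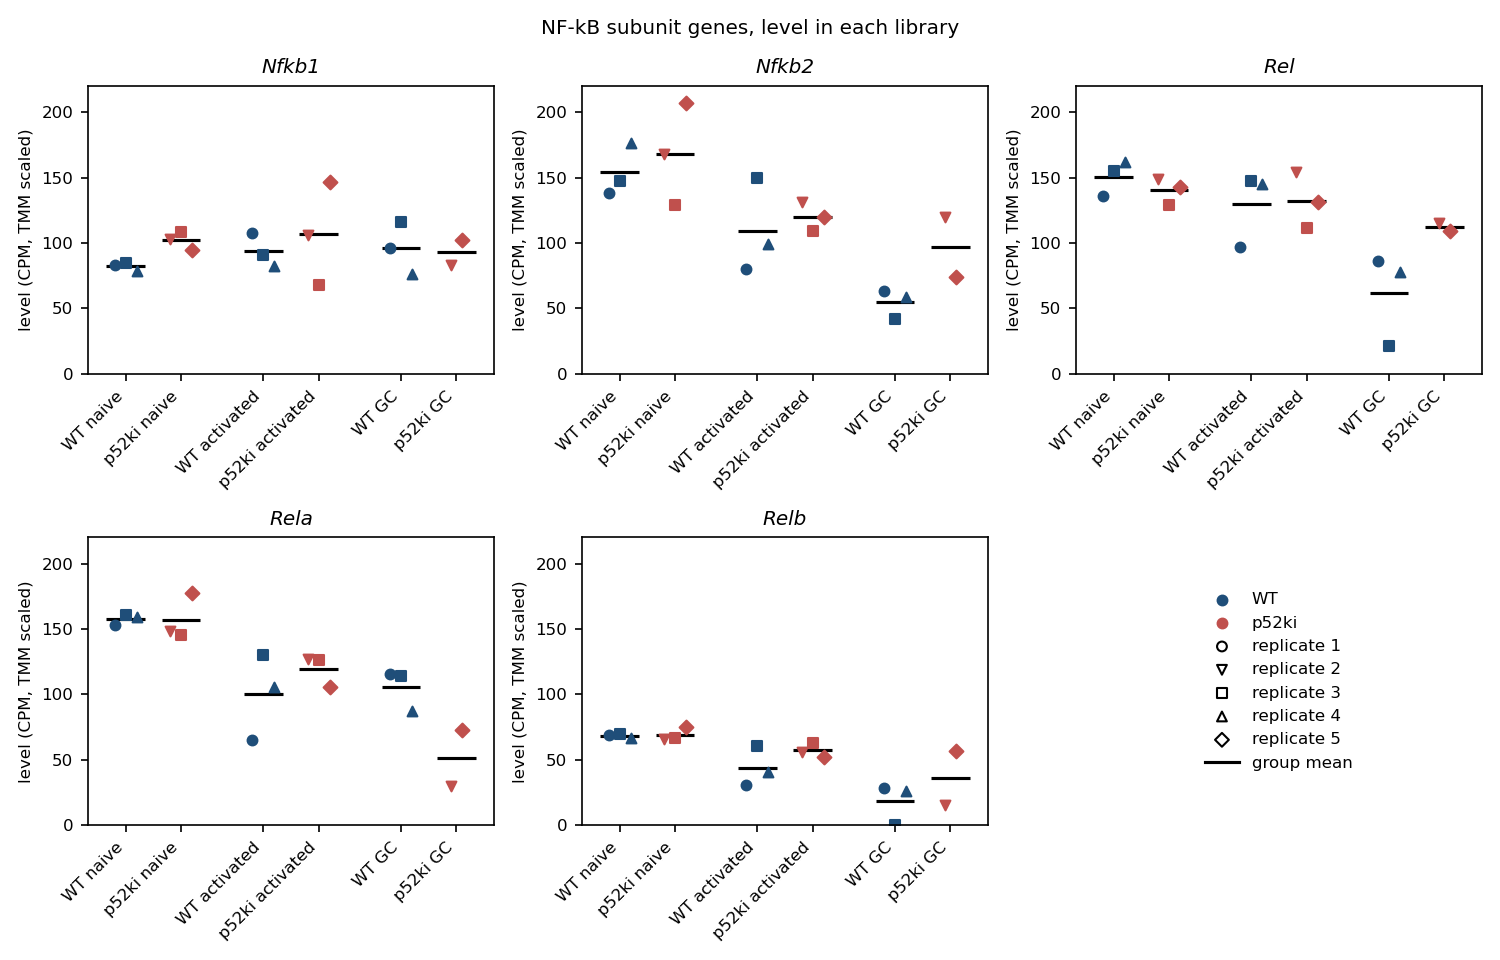
Level of each subunit gene in each of the 17 libraries, on a linear axis in CPM that starts at 0; points are libraries (colour for genotype, shape for replicate) and black lines are group means. Nfkb2, Rel and Relb were lowest on average in WT GC cells (54.4, 61.8 and 18.2 CPM), Rela in p52ki GC cells (51.4 CPM), and the group means of Nfkb1 ran from 82.1 to 107 CPM.

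Nfkb1, the gene of p105 and p50, was the most even of the family across states, and no contrast called it. WT naive cells had 83.1, 84.4 and 78.9 CPM (82.1 ± 2.90, n = 3), WT activated cells 108, 90.7 and 82.2 CPM (93.6 ± 13.1, n = 3) and WT GC cells 95.9, 116 and 76.0 CPM (96.1 ± 20.2, n = 3). The p52ki libraries had 103, 108 and 94.3 CPM in naive cells (102 ± 7.0, n = 3), 106, 68.2 and 147 CPM in activated cells (107 ± 39.2, n = 3), and 83.1 and 102 CPM in GC cells (92.8 ± 13.7, n = 2). In naive cells all 3 p52ki libraries lay above all 3 WT libraries, and in every other comparison of states or genotypes the libraries overlapped. The naive difference of 0.31 ± 0.256 did not pass the test (adjusted p = 1), and 5.21% of all genes tested had p52ki naive libraries all above the WT ones. Its lowest and highest libraries, both among the p52ki activated cells, differed 2.15-fold, against 4.95-fold for Nfkb2, 5.91-fold for Rela and 7.57-fold for Rel over all 17 libraries.

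Nfkb2, the gene of p100 and p52, fell from naive to GC cells of WT mice. WT naive libraries had 138, 147 and 177 CPM (154 ± 20.1, n = 3), WT activated libraries 80.0, 149.5 and 98.9 CPM (109.5 ± 35.9, n = 3) and WT GC libraries 63.2, 41.7 and 58.4 CPM (54.4 ± 11.3, n = 3). All WT GC libraries lay below all WT activated and all WT naive ones, while WT activated replicate 3 reached the range of naive cells. The change from naive to GC cells was -1.50 ± 0.278 (adjusted p = 0.00174), and from activated to GC cells -1.01 ± 0.276 (adjusted p = 0.0244). The first passed the test under all alternatives run, with adjusted p up to 0.012. The second did not pass without WT activated replicate 3 (-0.72, adjusted p = 0.124), without WT GC replicate 3 (adjusted p = 0.0503), without WT GC replicate 4 (adjusted p = 0.0541) or in a fit of these groups alone (adjusted p = 0.139).

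In p52ki cells the same gene had 168, 129 and 207 CPM in naive libraries (168 ± 38.7, n = 3), 132, 109 and 120.1 CPM in activated libraries (120.2 ± 11.3, n = 3), and 119.7 and 74.0 CPM in GC libraries (96.8 ± 32.3, n = 2). GC replicate 2 lay within the range of the activated libraries, and GC replicate 5 below them. From naive to GC cells Nfkb2 differed by -0.80 ± 0.312 (adjusted p = 0.0668) and from activated to GC cells by -0.31 ± 0.307 (adjusted p = 0.481), and neither passed. The first passed without p52ki GC replicate 2 (-1.20, adjusted p = 0.0346) or p52ki naive replicate 3 (adjusted p = 0.0483). In naive and in activated cells the genotypes differed by 0.13 ± 0.272 in each case (adjusted p = 1), and the libraries overlapped. The count does not tell which protein the transcript encodes.

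Rel, which encodes c-Rel, had its lowest level in WT GC cells. WT naive libraries had 136, 155 and 162 CPM (151 ± 13.6, n = 3), WT activated libraries 96.5, 148 and 145 CPM (129.6 ± 28.7, n = 3) and WT GC libraries 86.2, 21.4 and 77.9 CPM (61.8 ± 35.3, n = 3). All WT GC libraries lay below all naive and activated ones, and replicate 3, a library with few detected genes, lay far below the other two. Rel fell by 1.28 ± 0.363 on the log2 scale from WT naive to GC cells (adjusted p = 0.0255). Without WT GC replicate 3 the change was -0.85 (adjusted p = 0.0101). It did not pass without WT naive replicate 3 (adjusted p = 0.0726) or 4 (adjusted p = 0.0765), or in a fit of these groups alone (adjusted p = 0.167). From WT activated to GC cells the difference was -1.06 ± 0.362 (adjusted p = 0.0657), and -0.66 without WT GC replicate 3 (adjusted p = 0.0407). This difference passed under 9 of 14 alternatives run, with adjusted p from 0.00283 to 0.296.

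The p52ki libraries had 149, 129 and 143 CPM of Rel in naive cells (140.1 ± 9.99, n = 3), 154, 111 and 131 CPM in activated cells (132 ± 21.4, n = 3), and 115 and 109 CPM in GC cells (112 ± 4.24, n = 2). The p52ki GC libraries lay below all p52ki naive libraries and overlapped the activated ones. The differences of -0.32 ± 0.403 from naive cells (adjusted p = 0.575) and -0.24 ± 0.402 from activated cells (adjusted p = 0.695) did not pass. With detected genes per library as a covariate both turned and passed, at 1.27 (adjusted p = 0.00879) and 1.49 (adjusted p = 0.00528), although the levels of the GC libraries lay below the naive ones. Between the genotypes Rel differed by -0.11 in naive and 0.03 in activated cells, with overlapping libraries and an adjusted p of 1 in both.

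Rela, which encodes p65, fell in GC cells of p52ki mice. The p52ki naive libraries had 148, 145 and 178 CPM (157 ± 17.9, n = 3), the activated libraries 127, 126 and 106 CPM (119.6 ± 11.96, n = 3), and the GC libraries 30.04 and 72.8 CPM (51.4 ± 30.3, n = 2). Every p52ki GC library lay below every activated one and every activated one below every naive one, though the GC libraries differed 2.42-fold from each other. The change was -1.61 ± 0.349 from naive to GC cells (adjusted p = 0.00436) and -1.21 ± 0.343 from activated to GC cells (adjusted p = 0.0198). Without GC replicate 2, the lower of the pair, these were -1.12 (adjusted p = 0.0286) and -0.73 (adjusted p = 0.127). The second also missed the threshold without p52ki activated replicate 2 (adjusted p = 0.0676) or 3 (adjusted p = 0.0606), or with detected genes as a covariate (-1.03, adjusted p = 0.144). Both missed it when limma voom weighted the libraries by quality (adjusted p = 0.175 and 0.318) and in a fit of the groups compared alone (adjusted p = 0.0617 and 0.128).

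WT libraries had 153, 161 and 159.5 CPM of Rela in naive cells (158 ± 4.27, n = 3), 64.9, 129.8 and 106 CPM in activated cells (100.2 ± 32.8, n = 3) and 115, 114 and 87.0 CPM in GC cells (105.5 ± 16.1, n = 3). Activated and GC libraries overlapped, and all of both lay below the naive libraries. The differences from naive cells were -0.65 ± 0.295 in activated cells (adjusted p = 0.831) and -0.58 ± 0.294 in GC cells (adjusted p = 0.206), and that between WT GC and activated cells was 0.07 ± 0.294 (adjusted p = 0.906). WT activated replicate 1 had the lowest level of Nfkb2, Rel, Rela and Relb in its group and the highest of Nfkb1. Between the genotypes Rela differed by -0.01 ± 0.293 in naive and 0.25 ± 0.294 in activated cells (adjusted p = 1 in both), and the libraries overlapped.

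Relb, the partner of p52 in the noncanonical pathway, was even in WT naive cells and spread widely in GC cells. WT naive libraries had 69.3, 69.4 and 66.3 CPM (68.4 ± 1.75, n = 3) and WT activated libraries 30.4, 60.2 and 40.9 CPM (43.8 ± 15.1, n = 3). WT GC libraries had 28.3, 0 and 26.2 CPM (18.2 ± 15.8, n = 3), where the 0 of replicate 3 allows up to 0.61 CPM, the level of 3 counts, by counting error alone. All WT GC libraries lay below the activated ones, and all activated ones below the naive ones. The difference from naive to GC cells was -1.90 ± 0.863 (adjusted p = 0.156) and did not pass. Without WT GC replicate 3 it was -1.30 ± 0.402 and passed (adjusted p = 0.0358), as it did with detected genes as a covariate (-1.51, adjusted p = 0.0398) and with voom (-1.43, adjusted p = 0.000908). From activated to GC cells it was -1.26 ± 0.850 (adjusted p = 0.381).

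The p52ki libraries had 65.9, 66.8 and 74.7 CPM of Relb in naive cells (69.1 ± 4.87, n = 3), 56.4, 62.5 and 52.5 CPM in activated cells (57.1 ± 5.05, n = 3), and 15.8 and 56.6 CPM in GC cells (36.2 ± 28.9, n = 2). The GC pair differed 3.59-fold, and replicate 5 reached the range of activated cells. No p52ki difference of Relb passed, with -0.93 ± 0.960 from naive to GC cells (adjusted p = 0.487) and -0.65 ± 0.951 from activated to GC cells (adjusted p = 0.645). With detected genes as a covariate both turned and passed, at 3.58 (adjusted p = 0.0129) and 4.24 (adjusted p = 0.00771), although the levels of the GC libraries lay below the naive ones. The genotypes differed by 0.02 ± 0.831 in naive and 0.38 ± 0.833 in activated cells (adjusted p = 1 in both), with overlapping libraries.

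By group mean, the order from high to low was p52ki naive, WT naive, p52ki activated, WT activated, p52ki GC and WT GC for both Nfkb2 and Relb. Neighbours in that order overlapped except WT naive and p52ki activated cells, and for Nfkb2 also p52ki GC and WT GC cells. The order of Rel began with WT naive, p52ki naive, p52ki activated and WT activated cells and ended with p52ki GC and WT GC cells, and only the last pair did not overlap. For Rela it was WT naive, p52ki naive, p52ki activated, WT GC, WT activated and p52ki GC cells, where the step after p52ki naive cells was the only 1 between neighbours without overlap. The order of Nfkb1 ran from p52ki activated, p52ki naive, WT GC, WT activated and p52ki GC to WT naive cells, and all neighbours overlapped.

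Counted over the family, activation called no subunit gene in either genotype. The background was 0.319% of genes called between WT activated and naive cells and 0.117% between p52ki activated and naive cells, and 860 and 614 genes had an unadjusted p under 0.05. Rela and Relb libraries of activated cells all lay below the naive ones in WT and in p52ki, as did 9.35% and 8.12% of all genes tested. In WT GC cells 1 subunit gene (Nfkb2) was called lower than in activated cells, where 13.6% of genes were called and 7.75% were called lower. Nfkb2, Rel and Relb did not overlap between these groups, against 19.5% of genes that were lower without overlap. Against naive cells 2 (Nfkb2 and Rel) were called lower in WT GC cells, with 15.9% of genes called and 7.47% lower. There 4 of 5, all but Nfkb1, were lower without overlap, against 25.4% of genes. In p52ki GC cells 1 gene (Rela) was called lower than in activated cells and than in naive cells, where 25.6% and 29.1% of genes were called and 19.3% and 20.4% were called lower. Without overlap, Rela was lower than in activated cells, as were 38.2% of genes, and Nfkb2, Rel, Rela and Relb were lower than in naive cells, as were 39.9% of genes.

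**Figure D2:**
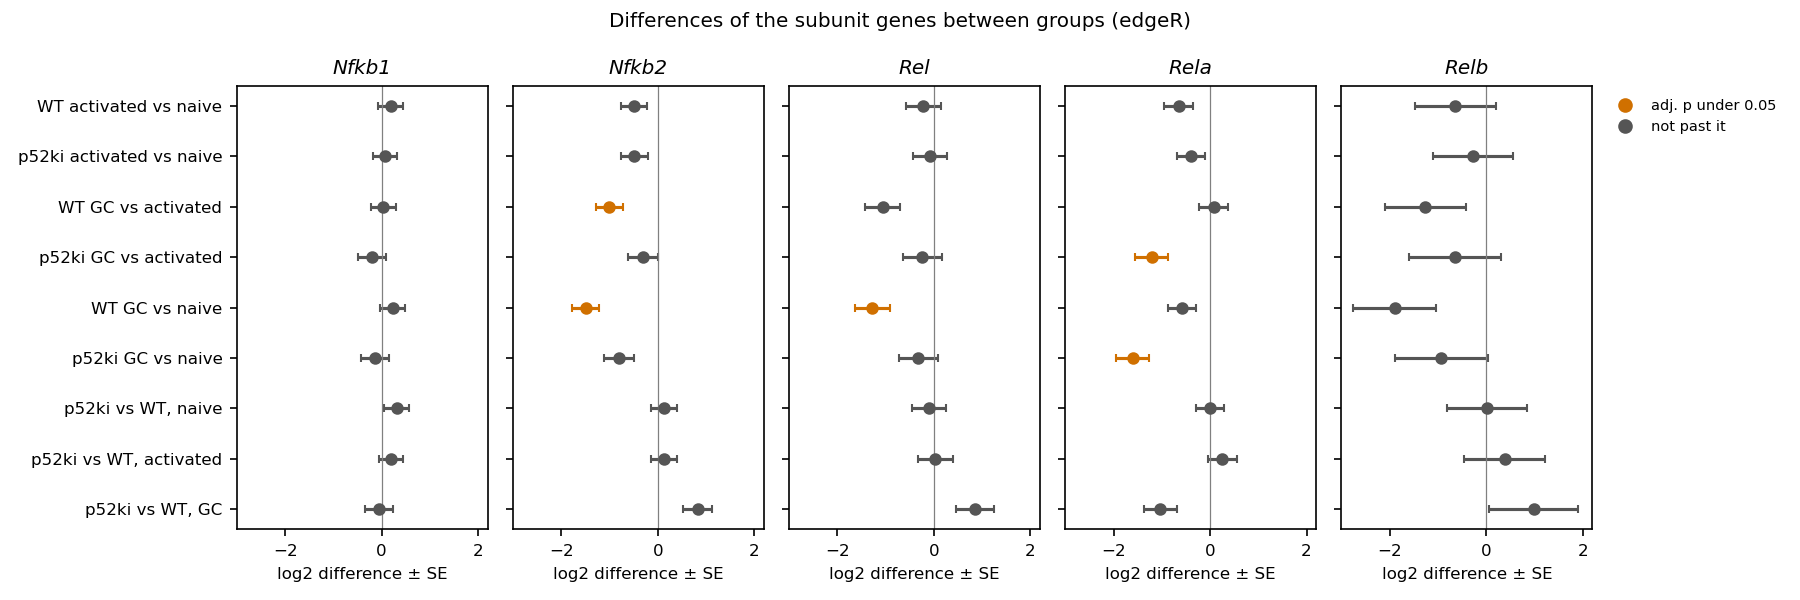
Log2 difference ± SE of each subunit gene in 6 comparisons of states and 3 of genotypes, from edgeR; orange marks an adjusted p under 0.05 over all genes tested. The orange points are Nfkb2 in WT GC cells against activated (-1.01) and naive (-1.50) cells, Rel in WT GC against naive cells (-1.28), and Rela in p52ki GC cells against activated (-1.21) and naive (-1.61) cells.

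Between the genotypes no subunit gene was called in any state. None of all genes tested (0%) was called in naive cells and 0.0130% in activated cells, where 80 and 134 genes had an unadjusted p under 0.05. In activated cells the libraries of all 5 subunit genes overlapped, while 6.10% of genes did not overlap. In GC cells 16.0% of genes passed between the genotypes, 3.75% in the direction of more RNA in p52ki and 12.2% in the direction of less, and the median difference of all genes was -0.319. Both p52ki GC libraries lay above all WT GC libraries for Nfkb2 and Rel, as for 9.45% of genes, and below them for Rela, as for 15.4% of genes.

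In GC cells Nfkb2 was 96.8 CPM in p52ki and 54.4 CPM in WT, a difference of 0.83 ± 0.302 (adjusted p = 0.0730). Rel differed by 0.85 ± 0.396 (adjusted p = 0.148), Relb by 0.99 ± 0.927 (adjusted p = 0.489) and Nfkb1 by -0.05 ± 0.287 (adjusted p = 0.930). Rela differed the other way, by -1.03 ± 0.341 (adjusted p = 0.0515). These values lie near the threshold and move across it. With DESeq2 both Nfkb2 (adjusted p = 0.0300) and Rela (adjusted p = 0.0303) passed. Without p52ki GC replicate 5 the differences were 1.12 for Nfkb2 (adjusted p = 0.0260) and -1.82 for Rela (adjusted p = 0.00210), and without p52ki GC replicate 2 they were 0.43 (adjusted p = 0.425) and -0.54 (adjusted p = 0.285).

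Detected genes, naive markers and some GC markers differed with genotype in GC cells, as given above, and the part of the markers in these differences was not tested. As both p52ki GC libraries had few detected genes, only WT GC replicate 3 separates that number from genotype in GC cells. A covariate of detected genes draws mostly on that library and cannot tell detected genes and genotype apart. With detected genes per library as a covariate the difference was 1.18 for Nfkb2 (adjusted p = 0.0273), 2.09 for Rel (adjusted p = 0.000113), 5.12 for Relb (adjusted p = 0.000935) and -0.94 for Rela (adjusted p = 0.0830). The value of Relb is that of a fit with 1 library at 0, WT GC replicate 3. Against WT GC replicate 3 alone, the WT library with as few detected genes, it was 1.22 for Nfkb2 (adjusted p = 0.0472), 2.40 for Rel (adjusted p = 0.000161) and -1.14 for Rela (adjusted p = 0.0663). Relb passed there too, against a library with no Relb count.

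The difference between the genotypes in the step from activated to GC cells was tested as an interaction, and no subunit gene was called, with 5.95% of genes called. The interaction was -1.29 ± 0.448 for Rela (adjusted p = 0.0960), 0.69 ± 0.408 for Nfkb2 (adjusted p = 0.326) and 0.83 ± 0.535 for Rel (adjusted p = 0.379). Without p52ki GC replicate 5 that of Rela was -2.08 and passed (adjusted p = 0.00311), and without p52ki GC replicate 2 it was -0.80 (adjusted p = 0.232). With detected genes as a covariate the interaction passed for Rel (2.27, adjusted p = 0.000588) and Relb (5.42, adjusted p = 0.00413) and not for Rela (-1.18, adjusted p = 0.120) or Nfkb2 (1.10, adjusted p = 0.115). The falls called in only 1 genotype, of Nfkb2 in WT and Rela in p52ki from activated to GC cells, are thus not shown to differ between the genotypes with all libraries in the fit. For the step from naive to GC cells this difference was not tested. For the step from naive to activated cells 0% of genes had an interaction that passed, 65 had an unadjusted p under 0.05, and all subunit genes had an adjusted p of 1.

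The balance between subunits was followed as the ratio of 2 genes in a library, with counts divided by the length of all merged exons (12.061 kb for Nfkb1, 4.584 kb for Nfkb2, 7.466 kb for Rel, 3.072 kb for Rela and 3.885 kb for Relb). A ratio needs no scaling between libraries. Its change between groups does not depend on the lengths, while its absolute level does. Ratios were compared by exact two-sided permutation tests, over both genotypes between states, with p-values adjusted over the 22 ratios between states and the 26 between genotypes that could be computed. Ratios with Relb were left out where GC cells enter, because WT GC replicate 3 had no Relb count.

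Rel to Rela, the balance of c-Rel and p65 transcripts, differed with opposite signs between activated and GC cells in the 2 genotypes. It was 0.365, 0.396 and 0.418 in WT naive libraries, 0.612, 0.468 and 0.563 in WT activated and 0.307, 0.0770 and 0.369 in WT GC libraries. In p52ki it was 0.413, 0.366 and 0.330 in naive, 0.500 (replicate 2), 0.363 and 0.511 in activated, and 1.58 and 0.616 in GC libraries. All WT GC libraries lay below the WT activated ones, both p52ki GC libraries lay above the p52ki activated ones, and p52ki GC replicate 2 alone had more Rel than Rela per kb. The mean log2 ratio changed by -1.40 in WT and 1.12 in p52ki. The exact permutation p was 0.1 in WT and 0.2 in p52ki, the smallest that these libraries allow. Adjusted over the ratios of each genotype it was 0.2 and 0.706, so neither change passed. Without WT GC replicate 3 the WT change was -0.69, and without p52ki GC replicate 2 the p52ki change was 0.45, and groups did not overlap in either case. The p52ki value then rests on GC replicate 5 alone, which also had few detected genes. In GC cells the genotypes differed by 2.26 in the log2 ratio. The exact permutation p was 0.2, the smallest that 3 against 2 libraries allow, and the adjusted p was 0.6.

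**Figure D3:**
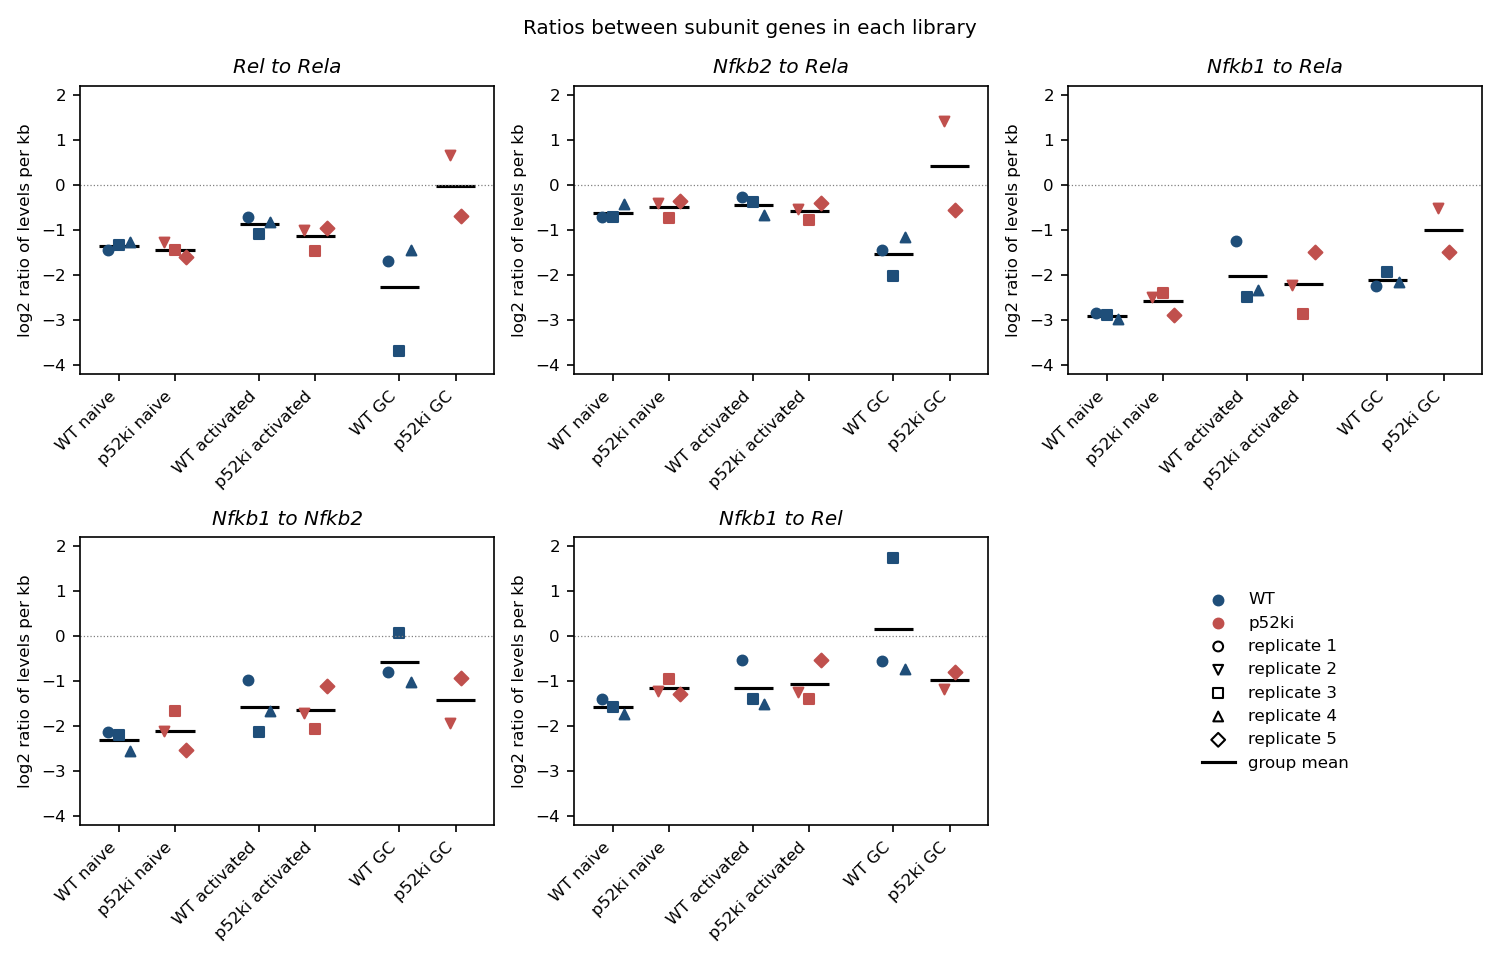
Log2 ratio of levels per kb of merged exons for 5 pairs of subunit genes in each library; points are libraries (colour for genotype, shape for replicate), black lines group means, and the dotted line marks equal levels per kb. Rel to Rela in GC libraries lay at 0.0770 to 0.369 in WT and at 0.616 and 1.58 in p52ki (linear ratios), and Nfkb1 to Rela lay higher in all GC than in all naive libraries of the same genotype.

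The other ratios with Rela and Rel were also compared between the genotypes in GC cells. Nfkb2 to Rela had a mean log2 ratio of -1.54 ± 0.447 (SD, n = 3) in WT GC cells and 0.43 ± 1.39 (SD, n = 2) in p52ki GC cells, and Nfkb1 to Rela had -2.12 ± 0.152 and -0.99 ± 0.691. The genotypes differed by 1.97 and 1.13 without overlap (exact permutation p = 0.2 and adjusted p = 0.6 for each). Without p52ki GC replicate 2 these were 0.99 and 0.64, and without p52ki GC replicate 5 they were 2.96 and 1.61. Nfkb1 to Rel differed by -1.13 without overlap, with 0.604 to 3.37 in WT and 0.447 and 0.581 in p52ki GC libraries as linear ratios, at the same p. Without WT GC replicate 3 the difference was -0.34, still without overlap. Nfkb2 to Rel had overlapping libraries in GC cells, with 1.20 to 3.18 in WT and 1.10 and 1.69 in p52ki. No ratio passed between the genotypes in any state.

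Between states, over both genotypes, Nfkb1 to Rela was higher in every GC library than in every naive library, with a linear ratio of 0.126 to 0.190 in all naive and 0.212 to 0.704 in all GC libraries. Its log2 change of 1.20 had the smallest exact permutation p that the design allows (p = 0.01) and an adjusted p of 0.088, and so did not pass after adjustment. Nfkb1 to Nfkb2 changed by 1.19 and Nfkb1 to Rel by 0.95 from naive to GC cells (exact permutation p = 0.02 and adjusted p = 0.088 for each). The second was 0.56 without WT GC replicate 3. Rel to Rela changed by 0.39 (exact permutation p = 0.02) and Nfkb2 to Rel by -0.33 (exact permutation p = 0.015) from naive to activated cells, both with an adjusted p of 0.088. Without p52ki activated replicate 3, 4 ratios between naive and activated cells passed (adjusted p = 0.044 for each), which were Nfkb1 to Rela, Nfkb1 to Relb, Rel to Rela and Rel to Relb.

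Read as shares of the summed level per kb, Rela was the largest part of the family transcript in naive cells and Nfkb1 the smallest. Rela made up 39.7% ± 1.25 (SD, n = 3) in WT naive and 38.5% ± 1.38 in p52ki naive cells, and Nfkb1 5.27% ± 0.409 and 6.45% ± 1.15. In GC cells Rela was 51.7% ± 10.2 in WT (n = 3) and 23.2% ± 10.5 in p52ki (n = 2), with 43.9% to 63.2% and 15.7% and 30.6% in single libraries that did not overlap. Nfkb2 was 17.6% ± 2.12 in WT GC and 31.4% ± 14.9 in p52ki GC cells, and Rel 11.9% ± 6.16 and 21.8% ± 4.18. Nfkb1 was 12.1% ± 3.71 and 11.01% ± 0.0849 in GC cells of WT and p52ki, above its share in all naive libraries of either genotype. The annotated length sets the level of these shares. With the longest coding transcript (4.117 kb for Nfkb1 and 2.209 kb for Relb) Nfkb1 was 11.8% ± 0.802 in WT naive and 25.5% ± 7.05 in WT GC cells, and Rela 34.4% ± 0.768 and 42.1% ± 7.10. Rela then remained the largest part in naive cells. Rel, at 11.9% ± 0.615, stood beside Nfkb1 as the smallest in WT naive cells, while in p52ki naive cells Rel was the smallest at 10.7% ± 0.858 and Nfkb1 was 14.2% ± 2.30.

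**Figure D4:**
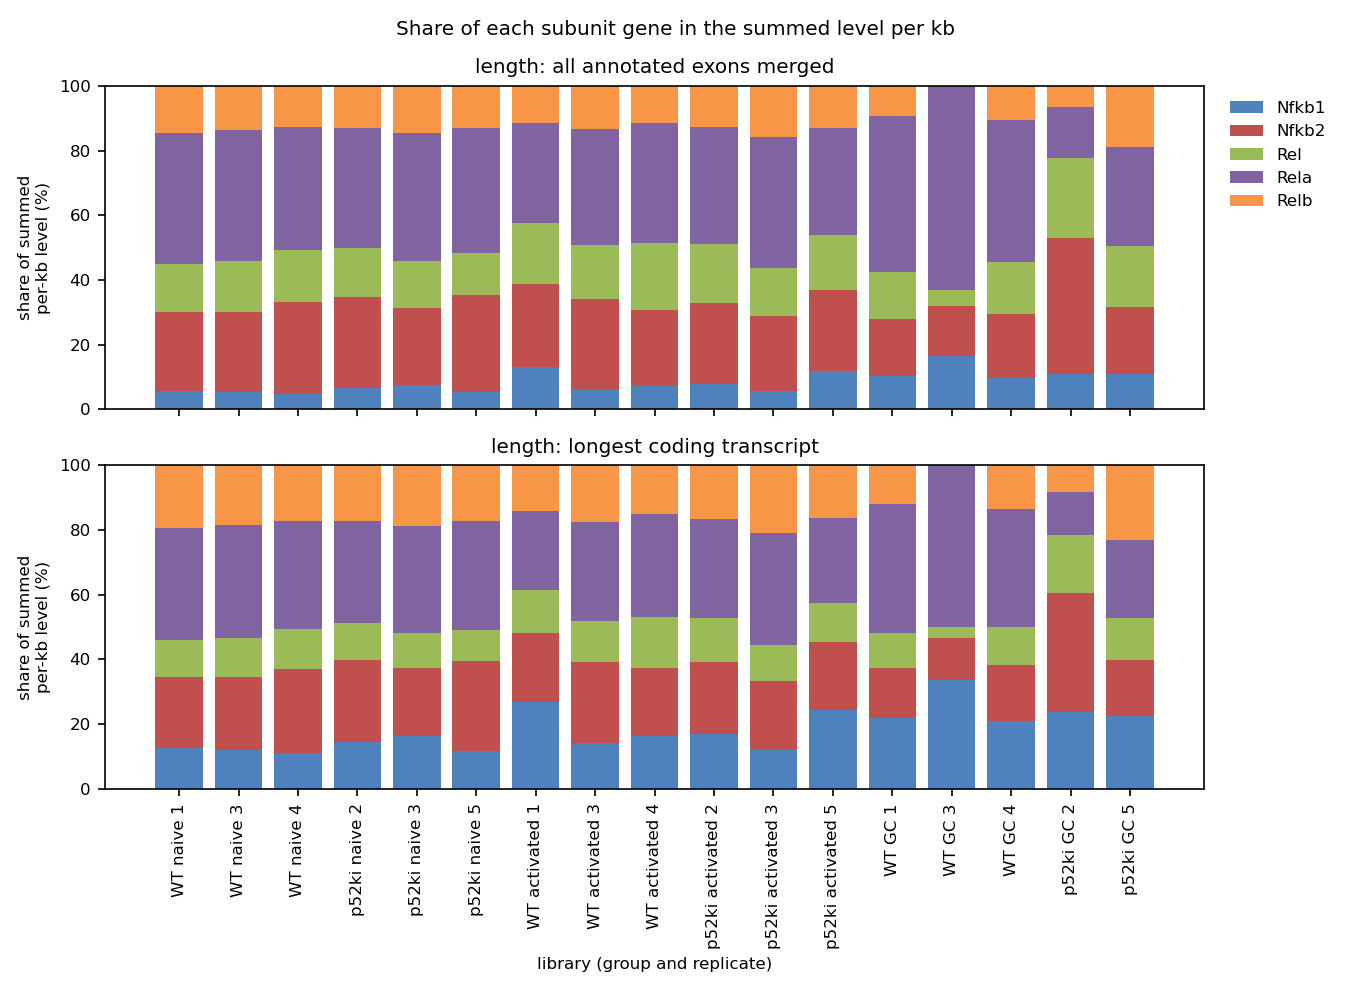
Share of each subunit gene in the summed level per kb of the 5 genes, in percent, for each library; the upper panel divides by merged exons and the lower by the longest coding transcript. Rela fills 15.7% and 30.6% of the bar in the p52ki GC libraries and 43.9% to 63.2% in the WT GC libraries in the upper panel, and the Nfkb1 segment is taller in the lower panel.

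Across all 17 libraries Rel and Relb had the most similar profiles (Pearson r = 0.94 of log2 CPM), followed by Nfkb2 with Rel (r = 0.83) and Nfkb2 with Relb (r = 0.72). Rela had r = 0.21 with Rel, 0.29 with Relb and 0.40 with Nfkb2, and Nfkb1 had r between -0.24 and -0.01 with the other 4. These are descriptions without a test, as the points share states, genotypes and the libraries with few detected genes. WT GC replicate 3 had the lowest level of Rel (21.4 CPM), Relb (0 CPM) and Nfkb2 (41.7 CPM), and no r was computed without it. In p52ki GC replicate 2 Rel was at 115 CPM and Relb at 15.8 CPM. Among 7934 protein-coding genes that averaged 10 CPM or more, the profiles most like that of Nfkb1 were those of Itpr3 (r = 0.771), Sesn3 (0.755) and Rsf1 (0.738). For Nfkb2 they were Pecam1 (0.959), Slc25a36 (0.946) and Themis2 (0.945), for Rel Ints4 (0.984), Stx17 (0.970) and Bfar (0.970), for Rela Zgpat (0.946), Klhl36 (0.942) and Dhx35 (0.939), and for Relb Fam210a (0.983), Rabep2 (0.983) and Rhof (0.982). Of these, Stx17, Klhl36, Dhx35 and Rabep2 had no count in at least 1 library.

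Genes around the subunits were counted in 4 lists: 6 IkB inhibitors, 16 kinases and adaptors, 11 receptors of which 8 passed the filter, and 22 textbook targets. The targets include 3 subunit genes and 6 genes of the other lists. In WT GC against activated cells 3 of 6 IkB genes fell and none rose, beside 7.75% of all genes called lower and 5.80% called higher. These were Nfkbie, which encodes IkB epsilon (-0.87, adjusted p = 0.00542), Nfkbid, a nuclear IkB (-2.11, adjusted p = 0.0247), and Bcl3, a nuclear partner of p50 and p52 (-0.93, adjusted p = 0.0321). The ubiquitin ligase gene Birc3 was the kinase or adaptor gene that fell (-1.31, adjusted p = 0.0295). Of 8 receptor genes 3 fell, Tnfrsf13b (TACI, -1.20), Tlr7 (-4.27) and Cd40 (-0.75), and of the targets 10 of 22, led by the chemokine receptor gene Ccr7 (-4.62), Irf4 (-2.03) and the survival gene Bcl2 (-4.45). Against naive cells 5 of 6 IkB genes fell in WT GC cells, led by Bcl3 (-1.52), Nfkbie (-0.85) and Nfkbia (-0.88), with 2 kinases or adaptors (Birc3, -1.71, and Ikbkb, -1.48), 3 receptors and 10 targets, beside 7.47% of all genes called lower. No gene of these lists rose, beside 8.45% of all genes. The list medians against naive cells ran from -1.10 (IkB genes) to -0.37 (kinases and adaptors), beside -0.157 for all genes.

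In p52ki GC against activated cells 1 of 6 IkB genes (Nfkbie, -0.69), 5 of 16 kinases and adaptors and 4 of 8 receptors fell, beside 19.3% of all genes called lower, so the IkB genes were near the share of all genes. They were led by Map3k14, the gene of NIK (-2.83, adjusted p = 0.00596), Ikbkb (-1.42), Malt1 (-1.53), Tlr7 (-5.32) and Tnfrsf13b (-1.02). The receptor Tlr9 had no count in either p52ki GC library. In p52ki activated cells it had 4.34 to 5.77 CPM, with a mean 17.1-fold above the level of 3 counts over the GC pair. Of the targets 5 fell, led by Ccr7 (-1.77) and Irf4 (-1.20), close to that share, and 2 rose, beside 6.34% of all genes. These were Bcl2a1b (2.27) and Bcl2a1d (1.87), near-identical copies whose reads may be split. Against naive cells 1 IkB gene (Bcl3, -1.12), 5 kinases and adaptors (Map3k14, -3.31), 4 receptors and 6 targets fell, beside 20.4% of all genes called lower. There 3 targets, all Bcl2a1 copies, rose, beside 8.68% of all genes. The list medians against naive cells ran from -1.32 (receptors) to -0.45 (IkB genes), beside -0.416 for all genes.

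Between the genotypes in GC cells 3.75% of all genes were called higher in p52ki and 12.2% lower. Of 6 IkB genes 2 were higher, Nfkbia, the gene of IkB alpha (1.38, adjusted p = 0.00192), and Nfkbiz, a nuclear IkB (1.44, adjusted p = 0.0364). Of 16 kinases and adaptors 2 were lower, Map3k14 (-2.87, adjusted p = 0.00905) and Traf2 (-1.07, adjusted p = 0.0254), and of 8 receptors 1, Tlr9. Both shares were near that of all genes called lower. Tlr9 had 1.22 to 4.23 CPM in WT GC cells, with a mean 10.8-fold above the level of 3 counts over the p52ki pair. Traf3, an adaptor that holds NIK at a low level, was higher (1.95, adjusted p = 0.0237). Of 22 targets 4 were higher (Ccr7, 3.25, Bcl2, 3.09, Nfkbia and Irf4, 0.97) and 1 lower (Icam1, -1.07). The target list had a median of 0.83 and the IkB list of 0.67, and the kinases and adaptors -0.53 and the receptors -1.05, beside -0.319 for all genes. Ccr7 is also a marker of naive cells, whose summed level was higher in p52ki GC cells. All 4 targets called higher were called lower in WT GC than in WT naive cells (Ccr7, -5.27, Bcl2, -4.72, Irf4, -1.99, and Nfkbia, -0.88). The part of naive markers in these differences was not tested. In the interaction of the step from activated to GC cells Map3k14 (-3.14, adjusted p = 0.0315), Ccr7 (2.85, adjusted p = 0.00400) and Tlr9 passed, and Nfkbia did not (1.11, adjusted p = 0.0542).

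No gene of the 4 lists was called between the genotypes in naive or activated cells, or between activated and naive cells of either genotype. The smallest p in these lists belonged to Nfkbiz (0.45), Traf2 (-0.27), Cd27 (-0.60) and Cd83 (-0.60) between naive genotypes, and to Bcl3 (0.42), Traf3 (0.42), Tnfrsf1b (0.46) and Nfkbia (0.27) between activated ones (adjusted p = 1 for all). Between activated and naive cells they belonged to Bcl3 (-0.58), Ikbkb (-0.64), Tnfrsf13b (0.20) and Icosl (-1.73, adjusted p = 0.194) in WT. In p52ki they belonged to Bcl3 (-0.26), Traf5 (-0.53), Tnfrsf13b (0.26) and Cxcr5 (-0.77, adjusted p = 0.661). Ets1, the gene of the partner of p52 in the series title, differed between genotypes by 0.01 in naive, 0.26 in activated and -0.07 in GC cells, and none of these passed. It fell from naive to GC cells in WT (-0.85 ± 0.262, adjusted p = 0.0390) and in p52ki (-0.93 ± 0.300, adjusted p = 0.0316).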

How the data were processed

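The authors deposited raw counts per gene for 17 libraries, made with SAMtools 1.8, HISAT2 2.1.0 and Subread 1.6.2 (featureCounts), on GRCm38, per the submitters' processing notes. Per the labels' protocols the cDNA was amplified from very little RNA with a SMART-Seq protocol, and no molecular identifiers are named, so counts can hold amplified copies and floors cover counting error only. All 55536 gene identifiers matched GENCODE mouse release 21, which gave symbols, positions and exon lengths.

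Groups came from the labelled genotype and cell population. Counts were filtered by filterByExpr over the 6 groups (15352 genes kept), scaled by TMM. The test was the quasi-likelihood one of edgeR 4.0.16 under R 4.3.3 (robust glmQLFit and glmQLFTest), with 1 coefficient per group over all 17 libraries and Benjamini-Hochberg adjustment over all genes tested. Calls were made at 0.05. The pipeline was tested on simulated data. Ratios were tested by exact two-sided permutation in Python 3.11.15, between states within genotype and between genotypes within state. Likeness used log2(CPM + 0.5). Alternatives were RLE scaling, no filter, DESeq2 1.42.0, voom in limma 3.58.1 with quality weights, a fit of the compared groups alone, detected genes as a covariate, no immunoglobulin genes (432 left out), a replicate block, WT GC replicate 3 as the only WT GC library, and each library left out in turn.

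Named genes were the 5 subunits in every contrast, up to 3 called genes with the smallest p from each list of pathway genes (the gene with the smallest p where none was called), Ets1, and 3 genes with the most similar profile per subunit. The Bcl2a1 copies, Ikbkb in p52ki and Nfkbia in the interaction were named after their values were seen. The subunits and lists were chosen with earlier results of these data known. Each pair of libraries within a group differed beyond counting noise (chi-square per degree of freedom 8.49 to 127), and all were kept as replicates. Some cell type markers are not reported here, and the summed levels of B cell, naive follicular and erythroid markers cover the genes named.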

Additional observations from a re-analysis of the deposited data

Results flagged for a closer look

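The ratio of Rel to Rela per kb changed from activated to GC cells by -1.40 on the log2 scale in WT and by 1.12 in p52ki. It was flagged for groups without overlap and with opposite signs. Every WT GC library lay below every WT activated library, while both p52ki GC libraries lay above every p52ki activated library. Neither change passed within its genotype (exact permutation p = 0.1 in WT and 0.2 in p52ki, the smallest possible). The difference between the genotypes in this change was not tested. The directions were the same without WT GC replicate 3 (-0.69 in WT) and without p52ki GC replicate 2 (0.45 in p52ki), both libraries with few detected genes. The p52ki value then rests on GC replicate 5 alone, which also had few detected genes.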

How the results depend on the processing

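Of 799 values recomputed under an alternative, 697 kept their direction and their side of the threshold. Of the rest, 55 changed direction, and among those that kept it 30 gained a call and 17 lost one. Only values called in the main fit could lose a call, and most of the 799 were not called there. For p52ki against WT in GC cells 0 subunit genes were called, against 2 with DESeq2, 3 with detected genes as a covariate, 1 without immunoglobulin genes, 3 against WT GC replicate 3 alone, and 0 to 2 with a library left out. For WT GC against activated cells the count of 1 became 2 with RLE scaling, 2 with no filter, 2 with DESeq2, 2 with voom, 2 with the covariate and 2 without immunoglobulin genes, 0 in a fit of the groups compared alone, and 0 to 2 with a library left out. For WT GC against naive cells the count of 2 became 4 with voom, 1 with the groups alone and 1 to 3 with a library left out. For p52ki GC against activated cells the count of 1 became 0 with voom, 0 with the groups alone, 2 with the covariate and 0 to 1 with a library left out, and against naive cells 0, 0, 3 and 1 to 2. The 2 with the covariate were Rel and Relb, both higher in GC cells, in place of Rela, and against naive cells they joined Rela. For WT activated against naive cells voom called 2 in place of 0. For the interaction of the step from activated to GC cells the covariate called 2 in place of 0, and 0 to 1 were called with a library left out. Of the ratios between states 0 passed, and 0 to 4 with a library left out. The cause was not tested in any of these, except that a fit of the groups alone has fewer libraries.

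In deviations from group means, same-numbered naive and activated libraries were correlated at 0.0786 to 0.281 (6 pairs, 4 over 0.1), against -0.23 to 0.147 for different numbers (10 of 12 negative), and 10 of these 12 libraries correlated best with their own number. Same-numbered pairs with a GC library lay at -0.229 to 0.068. Deviations in a group sum to 0, so correlations of different numbers offset those of the same number and are no separate evidence. Not every pair was over 0.1, so the numbers were not taken to pair the samples, and those of naive and activated cells give a hint of pairing from the data only. With the replicate block 0 genes were called between WT GC and activated cells (Nfkb2, adjusted p = 0.0746) and 1 between WT GC and naive cells (Rel, adjusted p = 0.0595), and other counts were the same.

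Values near 0 changed sign. Between naive genotypes Relb was -0.015 with voom, and with a library left out Relb ran from -0.044 to 0.050, Rela from -0.11 to 0.046 and Nfkb2 from -0.051 to 0.28. Between activated genotypes the covariate gave -0.18 for Rel and -0.30 for Relb, and with a library left out Nfkb2 ran from -0.029 to 0.43, Rel from -0.13 to 0.13 and Nfkb1 from -0.11 to 0.42. Between GC genotypes Nfkb1 was 0.0032 with RLE, 0.0052 with DESeq2, 0.20 with voom, 0.019 with the groups alone and 0.011 without immunoglobulin genes, and with a library left out Nfkb1 ran from -0.22 to 0.23 and Relb from -0.24 to 1.61. For WT GC against activated cells Nfkb1 was -0.024 with RLE, -0.025 with DESeq2, -0.031 with voom and -0.091 with the covariate, and Rela was -0.0049, -0.0057 and -0.093 with the first 3. With a library left out these ran from -0.12 to 0.23 and from -0.090 to 0.30. For p52ki activated against naive cells Rel ran from -0.16 to 0.050 and Nfkb1 from -0.23 to 0.33.

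For p52ki GC against activated cells the covariate gave 0.25 for Nfkb2, 1.49 for Rel and 4.24 for Relb, and against naive cells 1.27 for Rel and 3.58 for Relb. Nfkb1 was 0.020 against naive cells without immunoglobulin genes and ran from -0.38 to 0.093 against activated cells with a library left out. For the interaction of the step from naive to activated cells the covariate gave -0.064 for Nfkb2, -0.099 for Rel and -0.33 for Relb, and with a library left out Nfkb1 ran from -0.42 to 0.11, Nfkb2 from -0.15 to 0.30 and Rel from -0.019 to 0.24. For that of the step from activated to GC cells Nfkb1 ran from -0.41 to 0.057 and Relb from -0.62 to 1.23. Relb had the lowest counts of the subunit genes, with a median of 524 per library and 0 in WT GC replicate 3. That library had 4926763 assigned counts in all. The library of p52ki GC replicate 2 had fewer, 4067281, and held 65 counts of Relb. The cause of the 0 was not tested.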
